A study of Mus musculus with 25 samples.

Results

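At 39 weeks of age, the livers of mice labelled Ncoa5+/- differed from wild type livers in 63 genes, 11 of them targets of the tumour suppressor p53 from a list drawn up with earlier results of these mice known and 41 of them in no list, and the difference ran the same way in mice that drank metformin and in mice that did not. The comparison took all 17 livers of the older of 2 cohorts, out of 25 livers in the series, and set 10 Ncoa5+/- mice against 7 wild type mice with treatment as a covariate. All mice were C57BL/6, and RNA came from whole liver. The groups were 5 Ncoa5+/- and 4 wild type mice that went untreated, and 5 Ncoa5+/- and 3 wild type mice given metformin, a glucose-lowering drug, with their drinking water (roughly 250 mg per kg of body weight each day, over 31 weeks that began at 8 weeks of age). Ncoa5 encodes a coactivator of nuclear receptors, and the label Ncoa5+/- stands for 1 intact copy; which stretch of the gene was removed is not given in the labels. The question put to these values was which genes follow genotype whatever the drug does.

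p53 is a transcription factor that is held low by the ubiquitin ligase Mdm2 and acts when DNA is damaged or cells are under stress. Its targets stop the cell cycle (Cdkn1a, which encodes p21), prepare cells for apoptosis (Bax) or feed back on p53 itself (Mdm2). Liver cells also detoxify reactive compounds through glutathione S-transferases, epoxide hydrolase and carbonyl reductases, and many of these enzymes are targets of the transcription factor NRF2.

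Each value is FPKM, the number of fragments on a locus scaled by its length and by the fragments mapped in the library, and a difference is a log2 fold change of FPKM + 1, Ncoa5+/- over wild type, adjusted for metformin, with its standard error after the ± sign. A locus was called at a Benjamini-Hochberg adjusted p under 0.05 in limma. Ncoa5 itself, at chromosome 2, 165000275 to 165034867 (GRCm38), did not separate the genotypes. It had 4.42, 3.58, 2.63, 3.67 and 4.31 FPKM in untreated Ncoa5+/- mice, against 4.28, 4.68, 4.12 and 3.6 FPKM in untreated wild type mice. In treated mice it had 3.32, 3.87, 3.88, 3.07 and 3.63 FPKM in the Ncoa5+/- group, against 3.68, 3.58 and 6.64 FPKM in the wild type group. The genotypes overlapped with and without the drug. The difference was -0.20, with a two-sided exact p of 0.0789 over the 7056 ways of exchanging genotype within each drug state, and an adjusted p of 0.0789 over the 2 genes so tested. Without untreated wild type replicate 4, untreated Ncoa5+/- replicate 1 or 5, or treated wild type replicate 2, the exact p was 0.0411 to 0.0485, and without any 1 of the other mice 0.0559 to 0.291. The genotype names below are therefore the labels' own.

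Summed over loci, a library held 857291 to 2089981 FPKM, and read depth is unknown because the files used here hold no counts. In 2 libraries the 50 highest loci took over 70% of the FPKM sum, 78.3% in untreated Ncoa5+/- replicate 3 and 72.5% in treated Ncoa5+/- replicate 5; without both, 60 genes were called, 53 of them among those reported here. The hepatocyte markers summed to 5156 to 6509 FPKM in Ncoa5+/- mice and 4780 to 7394 FPKM in wild type mice, with Trf and Serpina1a listed at 0 in every mouse. The 9 B and plasma cell markers with a locus summed to 118.5 to 1099 FPKM in untreated and 110.3 to 617.6 FPKM in treated Ncoa5+/- mice, against 106.2 to 191.6 and 80.3 to 166.8 FPKM in wild type mice. All 6 that were tested had a positive difference, and all 13 tested Kupffer cell and macrophage markers a negative one, with none called in either list. The part of these cell types in the differences below was not tested, and in whole liver fewer cells of a type and less RNA per cell cannot be told apart.

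Of the 11441 loci whose mean over the 17 mice reached 1 FPKM, 63 were called, which is 0.551%. Of these, 53 were higher in Ncoa5+/- livers (0.463% of the loci tested) and 10 were lower (0.0874%). The higher genes had log2 fold changes of 0.28 to 3.97 with a median of 0.85, and 20 of them were past 1. The lower genes lay between -1.25 and -0.30, with a median of -0.45, and 1 of them was past -1. These sizes rest on the 1 FPKM added before the log: with 0.1 or 5 FPKM added in its place, 16 of the 34 called genes named by rule moved by over 1.5 times, Cdkn1a to 4.11 and 2.17. Over all loci tested the median was -0.01, and 748 loci (6.54%) had an unadjusted p under 0.05. All 63 genes had the same sign and an unadjusted p under 0.05 in both drug states of a fit with 4 group means, a pattern met by 121 of all loci tested (1.06%). Those within-state values come from the same mice as the call, so the agreement is partly fixed by it. In 49 of the 63 no Ncoa5+/- value crossed a wild type value in either drug state, against 56 of all loci tested (0.489%). Across all 17 mice pooled, 38 of the 63 had no overlap (0.35% of all loci tested), 35 higher and 3 lower, against 36 (0.315%) and 4 (0.035%) of all loci tested.

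**Figure D1:**
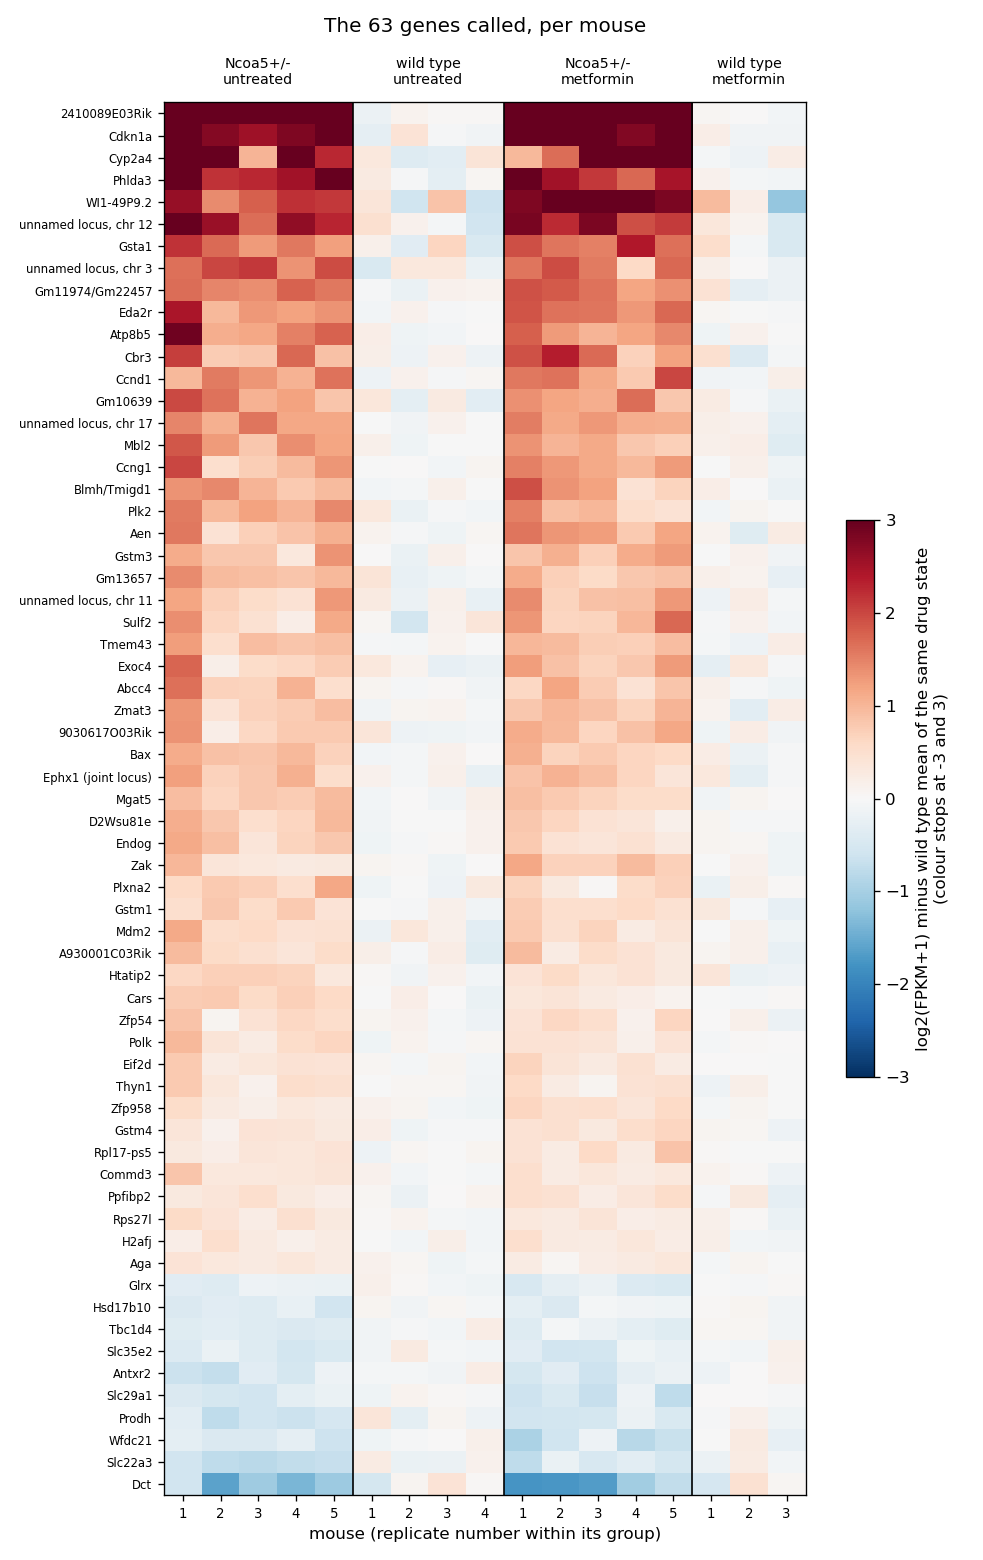
Each row is 1 of the 63 genes called, ordered by log2 fold change, and each column 1 mouse; colour gives log2(FPKM + 1) minus the wild type mean of the same drug state, up to 3 in either direction. The 53 higher genes are red in both Ncoa5+/- blocks, most deeply in untreated replicate 1, and the 10 lower genes at the bottom are pale blue in both.

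The p53 targets gave more called genes than any other list. Of 43 listed targets 33 were tested and 10 stayed under the filter, and 11 rose in Ncoa5+/- livers while none fell. Of the 33, 26 had a positive difference, with a median of 0.16. Over all loci tested, 0.463% were called higher and 43.9% were positive. The list was put together with earlier results of these mice known, so its count is a description. The 11 genes were Cdkn1a, Bax, Eda2r, Phlda3, Zmat3, Plk2, Ccng1, Aen, Ephx1, Mdm2 and Polk. In all 11 the genotypes were apart in both drug states, as they were in 49 of the 63 genes called and in 56 of all loci tested (0.489%). The 11 were called from the same mice, so this is partly fixed by the call. Of the 11, Eda2r, Phlda3 and Polk had a wild type mean under 1 FPKM and passed the filter only through the Ncoa5+/- mice, so that a difference was built into their being tested. The targets that were not called included Ddit4l at 0.91 ± 0.24 (limma adjusted p = 0.135) and Gdf15, a stress-induced cytokine, at 0.79 ± 0.29 (limma adjusted p = 0.54). Trp53, which encodes p53, stood at 0.05 ± 0.06, and none of the 8 tested genes of p53 and its regulators was called.

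Cdkn1a, the cyclin-dependent kinase inhibitor p21, lies at chromosome 17, 29090979 to 29100722, and had the second largest log2 fold change of the genes called. Untreated Ncoa5+/- mice had 117, 17.7, 15, 18.3 and 33.5 FPKM, against 1.28, 2.68, 1.71 and 1.56 FPKM in untreated wild type mice. Treated Ncoa5+/- mice had 24.5, 15, 14.4, 11.3 and 25.7 FPKM, against 1.06, 0.684 and 0.673 FPKM in treated wild type mice. The lowest Ncoa5+/- mouse was above the highest wild type mouse in either drug state, and untreated replicate 1 stood far above the rest. The log2 fold change was 3.39 ± 0.32 (limma adjusted p = 1.68e-05), 3.43 without and 3.35 with the drug, and leaving out 1 mouse at a time moved it between 3.14 and 3.51. Its two-sided exact p was 0.000142, the smallest that the 7056 arrangements can give, or 0.000284 over the 2 genes tested.

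The 300 bases around a start of Cdkn1a are shown because they hold a match to the p53 response element. It was found by a letter search of RefSeq promoter windows of 250 bases before to 50 after each start (GRCm38.p6). The search took 2 half-sites of 10 bases each, with 0 to 13 bases between them, on both strands. Their invariant core bases had to be intact, with at most 3 mismatches in all. Capitals mark, in each window, only the match with fewest mismatches, with its spacer. Such a match at 0 mismatches was in 0.0731% of 32851 windows, at up to 1 mismatch in 0.417%, at up to 2 in 2.12% and at up to 3 in 6.72%.
Cdkn1a, chr17:29090729-29091028, plus strand: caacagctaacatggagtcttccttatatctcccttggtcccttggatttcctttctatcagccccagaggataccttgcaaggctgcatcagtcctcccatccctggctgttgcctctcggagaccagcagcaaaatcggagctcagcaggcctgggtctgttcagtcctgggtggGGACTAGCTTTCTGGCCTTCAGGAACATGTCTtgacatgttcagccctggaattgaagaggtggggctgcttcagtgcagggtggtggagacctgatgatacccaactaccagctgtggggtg
Rps27l, chr9:66946163-66946462, plus strand: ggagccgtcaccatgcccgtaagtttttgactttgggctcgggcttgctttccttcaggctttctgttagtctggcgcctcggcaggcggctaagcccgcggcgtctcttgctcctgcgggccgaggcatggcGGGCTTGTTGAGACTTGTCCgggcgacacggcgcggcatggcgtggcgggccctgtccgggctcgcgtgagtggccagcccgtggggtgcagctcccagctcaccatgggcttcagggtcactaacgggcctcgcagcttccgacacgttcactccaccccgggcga
Bax, chr7:45466849-45467148, minus strand: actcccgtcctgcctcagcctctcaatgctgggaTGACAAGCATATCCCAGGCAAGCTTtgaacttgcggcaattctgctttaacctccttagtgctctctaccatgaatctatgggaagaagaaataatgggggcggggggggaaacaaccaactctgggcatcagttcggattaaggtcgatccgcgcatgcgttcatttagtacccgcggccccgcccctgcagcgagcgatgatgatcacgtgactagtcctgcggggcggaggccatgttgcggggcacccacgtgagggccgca

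The marked Cdkn1a match had 0 mismatches with a spacer of 12 bases and began at -73 from the start. The Rps27l one had 1 mismatch and no spacer and began at -117. The Bax one had 2 mismatches with a spacer of 5 and began at -216. These windows held 2, 3 and 3 matches in that order, and the others are not marked. In Cdkn1a the other match joins the last 10 capitals to the tgacatgttc that follows them, with no spacer. Which match is a working p53 site was not tested. The 3 windows shown were picked among known p53 targets: a window of Ppfibp2 also held a match with 1 mismatch, and the second window of Cdkn1a and of Rps27l held none. RefSeq windows were found for 52 symbols among the genes called, of which 10 (19.2%) held a match in any of their windows, against 7.63% of all 27025 symbols. Of the p53 list, 3 of the 10 called symbols with a window held one. The antioxidant response element TGACNNNGC, read on both strands, was in 12 of the 52 symbols (23.1%), against 14.0% of all symbols. A symbol with more windows has more chances of a match, and several called genes, such as Slc29a1 and Ppfibp2, have many. The number of windows per symbol was not matched, so these shares cannot be compared closely. A match is a run of letters in this window and says nothing about binding.

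Among the p53 targets that act on cell death, Bax, whose product opens the outer mitochondrial membrane, had 80.6, 69.1, 66.3, 73.8 and 60.3 FPKM in untreated Ncoa5+/- mice, against 34.6, 35.5, 40.6 and 37.3 FPKM in untreated wild type mice. With metformin it had 73.6, 55.9, 60.4, 55.4 and 53.1 FPKM in Ncoa5+/- mice, against 40.6, 30.8 and 33.7 FPKM in wild type mice. The groups did not overlap, and Bax rose by a log2 fold change of 0.83 ± 0.08 (limma adjusted p = 1.68e-05). Eda2r, a receptor for ectodysplasin A2, had 1.62 to 6.24 FPKM in Ncoa5+/- mice (median 2.42) and 0.115 to 0.452 FPKM in wild type mice (median 0.26). Its log2 fold change on the FPKM + 1 scale was 1.54 ± 0.16, which understates a gene this low (3.02 with 0.1 FPKM added). Aen, an apoptosis-enhancing nuclease, ran from 13.8 to 33.3 FPKM in Ncoa5+/- mice and from 5.77 to 11.2 FPKM in wild type mice, a log2 fold change of 1.07 ± 0.15.

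Phlda3, an inhibitor of the survival kinase Akt, had 45.1, 7.67, 8.23, 9.97 and 14.6 FPKM in untreated Ncoa5+/- mice, against 1.32, 0.865, 0.566 and 0.98 FPKM in untreated wild type mice. In treated mice it had 15.9, 10.2, 7.42, 5.45 and 9.78 FPKM in the Ncoa5+/- group, against 1.15, 0.879 and 0.837 FPKM in the wild type group. No wild type mouse reached the lowest Ncoa5+/- mouse, and the log2 fold change was 2.67 ± 0.29 (limma adjusted p = 4.9e-05). Of the targets that act on the cell cycle and on RNA, Ccng1 (cyclin G1) rose by 1.17 ± 0.16, Plk2 (a polo-like kinase) by 1.07 ± 0.14 and Zmat3 (an RNA-binding zinc finger protein) by 0.85 ± 0.11. Ephx1, microsomal epoxide hydrolase, is read from a locus shared with the pseudogene Gm36961, and that locus had 649 to 1070 FPKM in Ncoa5+/- mice and 390 to 628 FPKM in wild type mice, a rise of 0.82 ± 0.12. Mdm2, the ligase that degrades p53, rose by 0.58 ± 0.11 (limma adjusted p = 0.0231), and Polk, a DNA polymerase that copies past lesions, by 0.47 ± 0.09 (limma adjusted p = 0.0256); both lay outside the rule for named genes and were chosen after their values were seen. The Mdm2 call was lost without wild type untreated replicate 1 or 4 or wild type treated replicate 1 or 3 (adjusted p of 0.0549 to 0.0702), and the Polk call without any of 7 mice (0.0514 to 0.0675).

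Rps27l, a ribosomal protein-like gene that p53 is known to induce, was not on the list and was named after its values were seen. It had 866 to 1130 FPKM in Ncoa5+/- mice, against 695 to 953 FPKM in wild type mice, and rose by 0.35 ± 0.06 (limma adjusted p = 0.0105). The genotypes were apart within each drug state and overlapped when the states were pooled.

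Untreated Ncoa5+/- replicate 1 had the highest value of all 17 mice in 10 of the 11 p53 targets called, the exception being Plk2, which was highest in treated Ncoa5+/- replicate 1. It also held the maximum of 31 of the 53 higher genes. How often this mouse held the maximum over all loci tested was not counted. Without that mouse 53 genes were called, 52 of them among the 63.

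**Figure D2:**
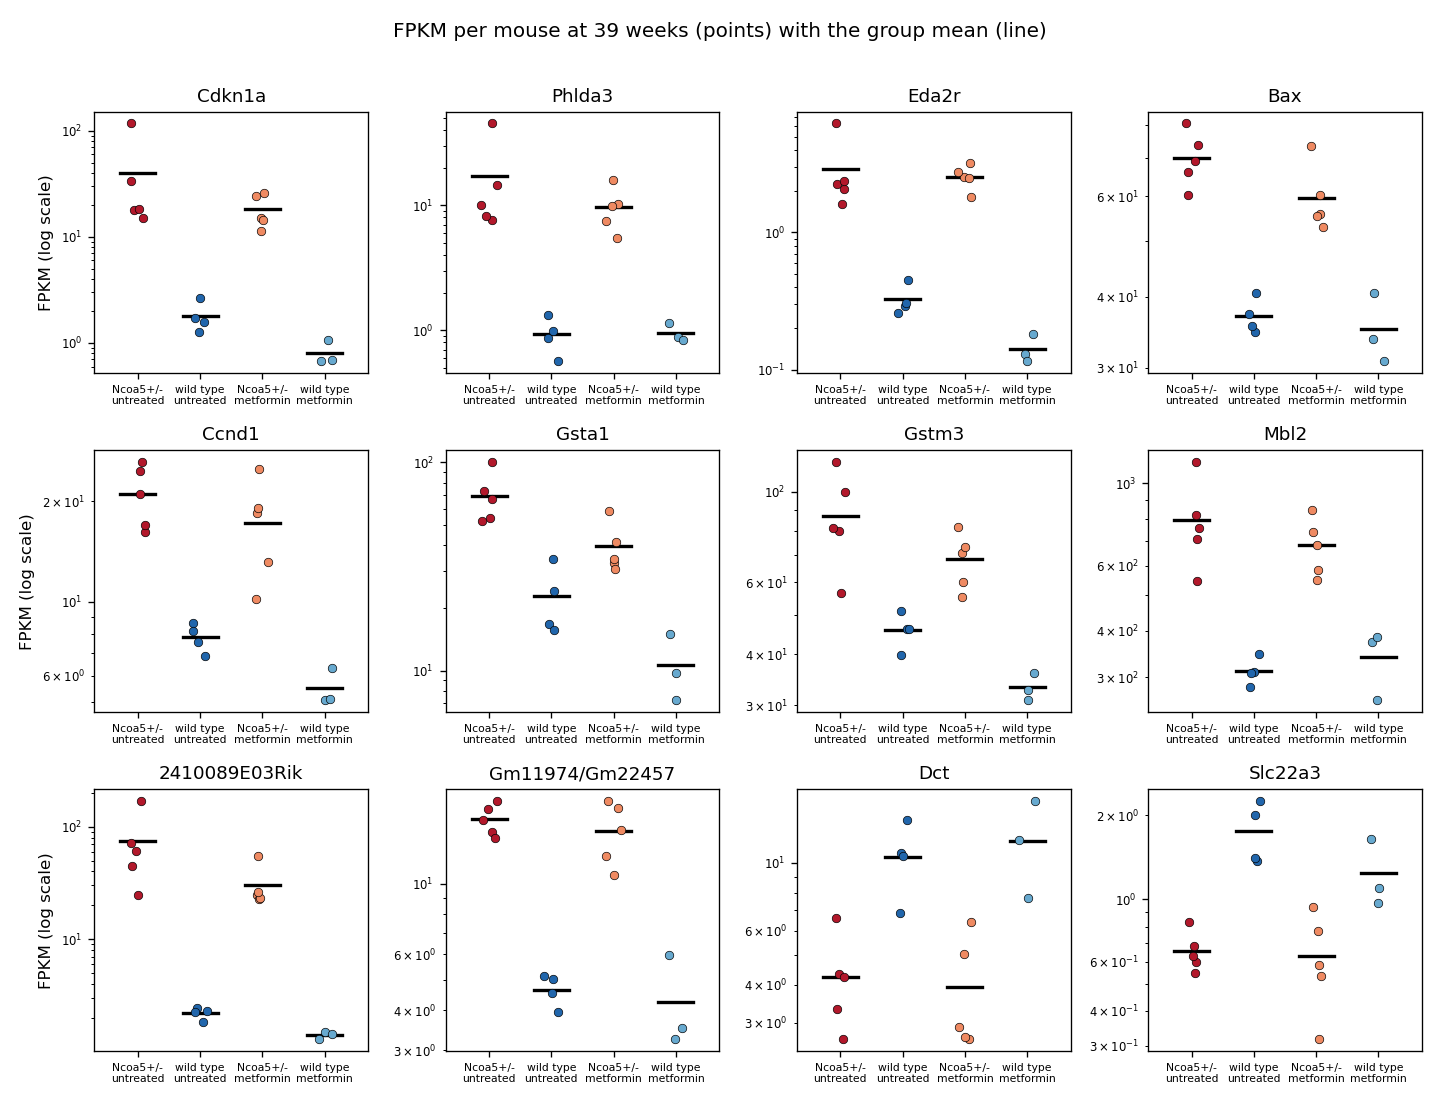
Points are single mice and lines group means, in FPKM on a log axis, for 12 of the genes called; Ncoa5+/- groups are red and orange, wild type groups dark and light blue. Cdkn1a runs from 11.3 to 117 FPKM in Ncoa5+/- mice and from 0.673 to 2.68 FPKM in wild type mice, and Dct and Slc22a3 are the panels in which the Ncoa5+/- groups lie lower.

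Of the cell cycle genes, Ccnd1 (cyclin D1, which starts the passage through G1) was the only one called in a list of 16 tested cyclins, kinases and inhibitors. That list leaves out Cdkn1a and Ccng1 (cyclin G1), which were both called and are counted with the p53 targets. Ccnd1 had 16.2, 24.7, 21, 17 and 26.2 FPKM in untreated Ncoa5+/- mice, against 6.88, 8.61, 7.58 and 8.16 FPKM in untreated wild type mice. Under metformin it had 18.5, 19.1, 13.2, 10.2 and 25.1 FPKM in Ncoa5+/- mice, against 5.06, 5.1 and 6.32 FPKM in wild type mice. The genotypes were apart in both states, and Ccnd1 rose by 1.36 ± 0.14 (limma adjusted p = 4.9e-05). Untreated replicate 1, highest for Cdkn1a, was the lowest untreated Ncoa5+/- mouse for Ccnd1. Cdk1, the mitotic kinase, stood at 0.49 ± 0.12 (limma adjusted p = 0.119), and none of 11 mitotic and replication genes or 22 DNA repair genes was called. Since 0.551% of all loci tested were called, the lack of a call in lists this short says little. Of the 11, 9 were positive, and of the 22, 15 were, against 43.9% of all loci tested. An unadjusted limma p under 0.05 in that direction was met by 2 and 4 of them, against 358 higher loci of all 11441.

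The second group was of detoxifying enzymes. Of 21 glutathione S-transferase genes tested, 4 rose (Gsta1, Gstm3, Gstm1 and Gstm4) and none fell, while 11 were positive and 10 negative, with a median of 0.03. Among all loci tested the shares called higher and positive were 0.463% and 43.9%. Gsta1 had 100, 72.7, 54, 66.5 and 52.2 FPKM in untreated Ncoa5+/- mice, against 24, 16.8, 34.5 and 15.6 FPKM in untreated wild type mice. With metformin it had 41.6, 32.8, 30.7, 58.3 and 34.4 FPKM in Ncoa5+/- mice, against 15, 9.68 and 7.2 FPKM in wild type mice. The genotypes were apart within each state, while treated Ncoa5+/- and untreated wild type mice overlapped. The log2 fold change between genotypes was 1.70 ± 0.19 (limma adjusted p = 8.25e-05), 1.59 without and 1.82 with the drug.

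Gstm3 had 55.2 to 118 FPKM in Ncoa5+/- mice, against 30.9 to 51.1 FPKM in wild type mice, and rose by 0.94 ± 0.12. Gstm1, the most abundant of the 4, had 1940 to 2670 FPKM in Ncoa5+/- mice, against 1190 to 1750 FPKM in wild type mice, and rose by 0.59 ± 0.08. Gstm4 rose by 0.39 ± 0.06, and its genotypes overlapped in untreated mice. Gm10639, a predicted coding gene on chromosome 9 like Gsta1, rose by 1.29 ± 0.16 and was named after its values were seen. These genes belong to families of similar sequence, and reads shared between members make the split between them uncertain.

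Of 27 NRF2 targets tested, with 1 more under the filter, 3 rose and none fell, where 0.463% of all loci tested were called higher. Of the 27, 25 were positive, against 43.9% of all loci tested. An unadjusted limma p under 0.05 in that direction was met by 13, against 358 higher loci of all 11441. Cbr3, a carbonyl reductase, had 2.35 to 10.4 FPKM in Ncoa5+/- mice and 0.66 to 2.1 FPKM in wild type mice, and rose by 1.40 ± 0.24 (limma adjusted p = 0.00593). Abcc4, an exporter of organic anions, had 1.54 to 5.01 FPKM in Ncoa5+/- mice and 0.707 to 1.1 FPKM in wild type mice, and rose by 0.85 ± 0.14 (limma adjusted p = 0.00508); its wild type mean was under 1 FPKM, and it passed the filter only through the Ncoa5+/- mice. The third was the Ephx1 locus. Nfe2l2, which encodes NRF2, stood at 0.50 ± 0.12 (limma adjusted p = 0.101) and Nqo1, a quinone reductase, at 0.57 ± 0.15 (limma adjusted p = 0.135). Cyp2a4, a steroid hydroxylase that is higher in female mouse liver, was the only gene called among 28 cytochrome P450 and drug metabolism genes. It had 29.8, 60.4, 5.74, 49.1 and 15 FPKM in untreated Ncoa5+/- mice, against 3.16, 1.56, 1.68 and 3.34 FPKM in untreated wild type mice, and 1.47, 3.03, 9.8, 25.4 and 31.5 FPKM in treated Ncoa5+/- mice, against 0.214, 0.137 and 0.479 FPKM in treated wild type mice. The genotypes were apart within each state but spread widely among Ncoa5+/- mice, and the log2 fold change was 2.94 ± 0.52 (limma adjusted p = 0.00812). Cyp2a4 has a near-identical neighbour, Cyp2a5, which stood at 0.46 ± 0.21 and was not called.

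**Figure D3:**
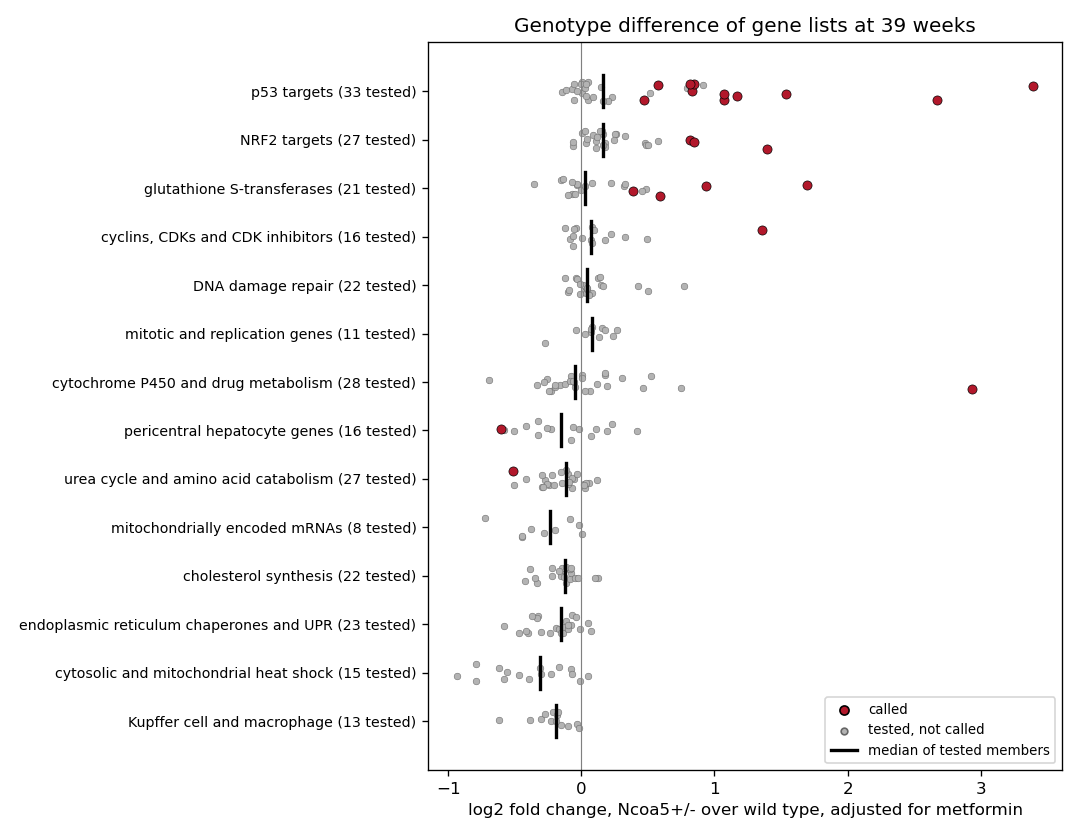
Each point is 1 tested gene of a list, at its log2 fold change of Ncoa5+/- over wild type adjusted for metformin; red points were called, and the black bar is the median of the tested members. The p53 list holds 11 called genes of 33 and the glutathione S-transferase list 4 of 21, while the medians of the heat shock list (-0.31) and of the mitochondrial mRNAs (-0.24) lie below 0 with no gene called.

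Of the 63 genes called, 41 were in no list. The largest log2 fold change belonged to 2410089E03Rik, now named Cplane1, a gene for a protein of ciliary assembly, at chromosome 15, 8169073 to 8271158. Untreated Ncoa5+/- mice had 168, 71.1, 44.8, 24.5 and 60.7 FPKM, against 1.82, 2.44, 2.25 and 2.28 FPKM in untreated wild type mice. Treated Ncoa5+/- mice had 55.2, 24.9, 22.6, 23 and 26.3 FPKM, against 1.5, 1.43 and 1.29 FPKM in treated wild type mice. The lowest Ncoa5+/- mouse was several times above the highest wild type mouse, and the log2 fold change was 3.97 ± 0.29 (limma adjusted p = 9.33e-07). The locus also spans the small nuclear RNA gene Gm24144, and which transcript the reads came from was not tested.

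The smallest p belonged to the joint locus Gm11974,Gm22457 at chromosome 11, 6525591 to 6528801, which overlaps Snhg15, a host gene of small nucleolar RNA, and Snora9. Untreated Ncoa5+/- mice had 17.1, 14.5, 13.9, 18.1 and 15.8 FPKM there, against 4.52, 3.94, 5.13 and 5.01 FPKM in untreated wild type mice. In treated mice the values were 18.1, 17.3, 14.7, 10.6 and 12.2 FPKM in the Ncoa5+/- group, against 5.95, 3.25 and 3.52 FPKM in the wild type group. The 2 ranges were far apart, and the log2 fold change was 1.58 ± 0.11, with 1.58 without and 1.59 with the drug. Other non-coding or unannotated loci that rose were an unnamed locus at chromosome 17, 21474540 to 21478700, close to Zfp51 and Zfp53 (1.26 ± 0.10), and WI1-49P9.2, the long non-coding gene Gm43549 on chromosome 3 (2.56 ± 0.31). The unnamed locus had 3.89 to 7.42 FPKM in Ncoa5+/- mice, against 1.16 to 2.3 FPKM in wild type mice, and WI1-49P9.2 had 33.4 to 84.3 FPKM in Ncoa5+/- mice, against 1.22 to 24.1 FPKM in wild type mice. Both were apart between genotypes over all 17 mice. Unnamed loci on chromosomes 3, 11 and 12 and Gm13657, a processed transcript on chromosome 2, rose too; these 4 were picked once their values were known.

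Mbl2, mannose-binding lectin C, which binds microbial sugars and starts complement, was the only gene called of 26 complement, coagulation and lectin genes. It had 1140, 756, 546.4, 824 and 707 FPKM in untreated Ncoa5+/- mice, against 346, 283, 310 and 307 FPKM in untreated wild type mice. Under metformin it had 850, 681, 741, 585 and 548 FPKM in Ncoa5+/- mice, against 373, 386 and 260 FPKM in wild type mice. The genotypes were apart, and Mbl2 rose by 1.17 ± 0.14 (limma adjusted p = 0.000121). Mgat5, a glycosyltransferase that adds branches to N-glycans, had 2.78 to 4.23 FPKM in Ncoa5+/- mice and 1.4 to 2.05 FPKM in wild type mice, and rose by 0.76 ± 0.07. Tmem43, a protein of the inner nuclear membrane, had 6.74 to 11.9 FPKM in Ncoa5+/- mice and 3.42 to 4.84 FPKM in wild type mice, and rose by 0.88 ± 0.09. Zak, a stress-activated kinase now named Map3k20, had 5.01 to 8.99 FPKM in Ncoa5+/- mice and 2.83 to 4.26 FPKM in wild type mice, and rose by 0.63 ± 0.11 (limma adjusted p = 0.00882). The last 3 did not overlap between genotypes either.

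Further genes rose by smaller amounts or at low levels, and those in the next sentences, apart from Cars, were picked with their values known. Atp8b5, a phospholipid-transporting ATPase, had 1.44 to 8.21 FPKM in Ncoa5+/- mice and 0.106 to 0.413 FPKM in wild type mice; 9 called genes had a wild type mean under 1 FPKM and passed the filter through the Ncoa5+/- mice, namely this one, Eda2r, Phlda3, Polk, Abcc4, Gm13657, Zfp54, the joint locus of Blmh and Tmigd1, and the unnamed locus on chromosome 11. The joint locus of Blmh (bleomycin hydrolase) and Tmigd1 rose by 1.11 ± 0.17, and Endog (a mitochondrial nuclease) and D2Wsu81e, now Spout1, by 0.64 ± 0.10 and 0.66 ± 0.10. Endog and D2Wsu81e lie on opposite strands and were given the same locus boundaries, chromosome 2, 30171473 to 30178459, so their reads may be shared. Cars, cysteinyl-tRNA synthetase, had 16.2 to 21 FPKM in Ncoa5+/- mice and 10 to 15.4 FPKM in wild type mice, and was the 1 called gene with an interaction p under 0.05. Htatip2 (0.52 ± 0.08), 9030617O03Rik, now Dglucy (0.85 ± 0.13), Eif2d, a translation initiation factor (0.43 ± 0.07), Zfp958 (0.41 ± 0.07) and Aga, a lysosomal hydrolase (0.28 ± 0.05), rose as well. Commd3, Plxna2 (a semaphorin receptor), Ppfibp2, Exoc4 (a subunit of the exocyst), Sulf2 (which trims heparan sulphate), Rpl17-ps5, Thyn1, A930001C03Rik, H2afj (a histone H2A variant) and Zfp54 rose by 0.30 to 0.91 with adjusted p between 0.0157 and 0.044, and each of these 10 lost its call without at least 1 single mouse. The locus named Rpl17-ps5, chromosome 5, 22550432 to 23275597, overlaps 13 annotated genes, that pseudogene and the coding gene Lhfpl3 among them. Which of them its reads came from was not tested. Of the 63 loci, 24 overlap an annotated gene on the other strand, among them Cdkn1a, Ccnd1, Dct and Prodh. Strand use in the counting is not given in the sources used here. Of the genes called, 6 were on chromosome 2, which carries Ncoa5, among them Endog and D2Wsu81e with their shared boundaries. The share of all loci tested that lie on this chromosome was not counted. The nearest to Ncoa5, Sulf2, lay 0.958 Mb from it and overlaps Ncoa3 on the other strand. The others lay 89.2 Mb (Gm13657) to 146.3 Mb (Commd3) from Ncoa5.

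The 10 genes that fell had small differences, and their number moved with single mice and with the handling of failed estimates. It was 18 with the loci listed at 0 in a whole group kept. It was also 18 without untreated Ncoa5+/- replicate 2 and 17 without treated Ncoa5+/- replicate 4, 5 without untreated wild type replicate 3 or treated wild type replicate 2, and 6 without untreated Ncoa5+/- replicate 1 or 5 or untreated wild type replicate 4. Dct, dopachrome tautomerase, an enzyme of melanin synthesis, had 6.58, 2.66, 4.33, 3.33 and 4.23 FPKM in untreated Ncoa5+/- mice, against 6.83, 10.8, 13.8 and 10.5 FPKM in untreated wild type mice. Treated Ncoa5+/- mice had 2.65, 2.69, 2.9, 5.04 and 6.42 FPKM, against 7.67, 15.9 and 11.9 FPKM in treated wild type mice. The highest Ncoa5+/- mouse was just below the lowest wild type mouse, and Dct fell by 1.25 ± 0.19 on the log2 scale (limma adjusted p = 0.00257).

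Of the transporters, Slc22a3 (organic cation transporter 3) had 0.832, 0.597, 0.546, 0.629 and 0.68 FPKM in untreated Ncoa5+/- mice, against 2.24, 1.37, 1.4 and 2 FPKM in untreated wild type mice. With the drug it had 0.317, 0.936, 0.582, 0.771 and 0.531 FPKM in Ncoa5+/- mice, against 0.969, 1.65 and 1.1 FPKM in wild type mice. No Ncoa5+/- mouse reached a wild type mouse, and Slc22a3 fell by 0.60 ± 0.10 on the log2 scale (limma adjusted p = 0.00527). The size depended on the FPKM added before the log, at -1.11 with 0.1 and -0.20 with 5, and the ratio of the means was 0.419. It sits at the filter, which it passed only through the wild type mice: without any 1 of 5 wild type mice (the 4 untreated ones and treated replicate 2) its mean was under 1 FPKM, and it was called in each of the other 12 fits that left out 1 mouse. It was the only called gene of 5 tested organic cation transporters and of 16 pericentral hepatocyte genes. Slc29a1, an equilibrative nucleoside transporter, had 85.6 to 142 FPKM in Ncoa5+/- mice and 144 to 178 FPKM in wild type mice, and fell by 0.47 ± 0.08 on the log2 scale (limma adjusted p = 0.00789). Slc35e2, a putative carrier, fell by 0.38 ± 0.08 on the log2 scale, with an adjusted p of 0.0522 in limma without a filter.

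Among metabolic genes, Prodh, the proline dehydrogenase of mitochondria, had 66.2 to 95.6 FPKM in Ncoa5+/- mice and 91.3 to 155 FPKM in wild type mice. It was the only gene called of 27 genes of the urea cycle and amino acid catabolism, of which 21 were negative, and it fell by 0.51 ± 0.09 on the log2 scale (limma adjusted p = 0.00969). Glul, glutamine synthetase, stood at -0.51 ± 0.12 (limma adjusted p = 0.0883) and Slc1a2, a glutamate transporter of the same pericentral cells, at -0.58 ± 0.14 (limma adjusted p = 0.115), both uncalled. Of the 16 pericentral hepatocyte genes tested, 11 were negative and 5 positive, with a median of -0.15. Over all loci tested 43.9% were positive. Hsd17b10, a mitochondrial dehydrogenase, fell by 0.31 ± 0.07, Glrx, glutaredoxin, by 0.30 ± 0.06 and Tbc1d4, a regulator of glucose transporter traffic, by 0.32 ± 0.07 on the log2 scale. The Hsd17b10 call was lost under 6 processing alternatives (limma adjusted p of 0.0504 to 0.0957), the Tbc1d4 call under 5 (0.0505 to 0.137) and the Glrx call without the treatment covariate (0.126). Tbc1d4 passed the filter only through the wild type mice, and its difference was -0.57 with 0.1 and -0.11 with 5 FPKM added. Wfdc21, a small secreted protein with a whey acidic domain, fell by 0.52 ± 0.10 on the log2 scale; its values ran from 1120 to 2420 FPKM in Ncoa5+/- mice and from 1570 to 3240 FPKM in wild type mice, and the genotypes were apart in untreated mice and overlapped in treated mice. Its call was lost under 4 processing alternatives (limma adjusted p of 0.0811 to 0.428, the highest without the treatment covariate). Antxr2, a receptor for matrix proteins and anthrax toxin, fell by 0.44 ± 0.09 on the log2 scale, with an adjusted p of 0.0568 in limma without a filter. Of the 10 genes that fell, Dct, Slc29a1 and Prodh stayed called without any single mouse; besides Slc22a3, the other 6 did not.

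Several lists lay below 0 with no gene called. Of 13 mitochondrially encoded mRNAs listed, only 8 were tested, and 4 were under the filter. Of the 8, 7 were negative, 5 of them with an unadjusted p under 0.05, and the median was -0.24. The nearest to a call was mt-Cytb, cytochrome b, at -0.73 ± 0.16 with a limma adjusted p of 0.0508, the first value outside the threshold; Zfp54, at 0.48 ± 0.10 and 0.044, was the last inside. The share of the FPKM sum from mitochondrial transcripts was 1.1% to 2.23% in untreated and 1.45% to 2.8% in treated Ncoa5+/- mice, against 2.22% to 2.48% and 2.26% to 3.11% in wild type mice, and the 2 lowest shares were in the libraries with the high top-50 share. The part of that share in these differences was not tested. Heat shock genes were negative in 14 of 15, with a median of -0.65 without and -0.09 with metformin, chaperones of the endoplasmic reticulum in 21 of 23, and genes of cholesterol synthesis in 20 of 22. Over all loci tested, 43.9% were positive, and 390 were lower and 358 higher at an unadjusted p under 0.05.

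The drug states were then set against each other, since a difference that is past the threshold in one and not the other is not shown to differ. No locus of 11441 was called for the interaction of genotype and metformin in limma (smallest adjusted p = 0.991), and 319 (2.79%) had an unadjusted p under 0.05. Among the 63 genes, Cars had an unadjusted interaction p of 0.0031, with a log2 fold change of 0.68 without and 0.26 with the drug. The median size of the interaction over the 63 was 0.15 on the log2 scale. The 63 were called from the same mice in a model without an interaction, so small interactions among them are partly fixed by the call. The standard error of the interaction ran from 0.10 for Aga to 1.07 for Cyp2a4. In 37 of the 63 the genotype difference was the larger in untreated mice, and in 26 in treated mice.

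**Figure D4:**
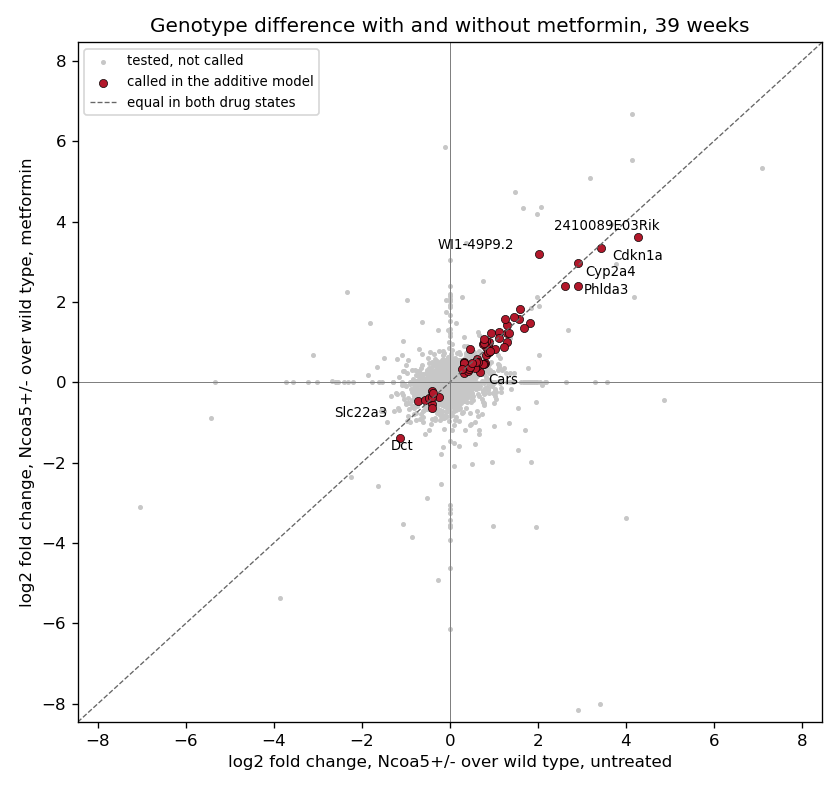
Each point is 1 of 11441 loci, at its log2 fold change of Ncoa5+/- over wild type in untreated mice (horizontal) and in metformin-treated mice (vertical); red points are the 63 genes called in the additive model. The red points follow the dashed line of equal difference from Dct at -1.14 and -1.39 to 2410089E03Rik at 4.27 and 3.62, and Cars lies below it. They were called from the same mice, so their closeness to the line is partly fixed by the call.

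Each drug state was also fitted alone. The loci tested were those with a mean of at least 1 FPKM over all 17 mice, so mice of both states chose them, and Eda2r, Phlda3 and Blmh,Tmigd1 among the loci below passed only through Ncoa5+/- mice. In the 9 untreated mice 11 loci were called (0.0961%), all higher in Ncoa5+/- mice: Gm11974,Gm22457, the unnamed locus on chromosome 17, Bax, 2410089E03Rik, Ccnd1, the unnamed locus on chromosome 3, Mgat5, Plk2, Blmh,Tmigd1, Cars and Mbl2. All 11 were higher with an unadjusted p under 0.05 in the 8 treated mice, where 2.61% of all loci were. In the 8 treated mice 6 loci were called (0.0524%), again all higher: Eda2r, 2410089E03Rik, Cdkn1a, Ccng1, the unnamed locus on chromosome 12 and Phlda3. All 6 were higher with an unadjusted p under 0.05 in the untreated mice, where 2.34% of all loci were. The largest p in the other state was 0.0103, for Cars. 1 locus, 2410089E03Rik, was called in both states alone, and all 16 called in either were among the 63.

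Separate mice of the same genotypes at 20 weeks, 4 Ncoa5+/- and 4 wild type, none treated, had their libraries prepared at another facility and their values deposited apart, and were tested alone. No locus of 10963 was called there in limma (smallest adjusted p = 0.603), with 820 (7.48%) at an unadjusted p under 0.05. Of the 63 genes, 46 were matched by symbol and tested at 20 weeks. Of the 38 that were higher at 39 weeks 31 were positive at 20 weeks, where 54.4% of all loci were, and of the 8 that were lower 4 were negative, where 45.6% were. An unadjusted p under 0.05 in the same direction was met by 9, all higher, and 5.05% of all loci were higher at that threshold. These 9 were Cdkn1a, Bax, Plk2, the Ephx1 locus, Gsta1, WI1-49P9.2, Zfp958, A930001C03Rik and Zfp54. All 7 tested p53 targets were positive, 4 of them at that threshold.

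Cdkn1a had 8.04, 0.666, 10.4 and 1.58 FPKM in Ncoa5+/- mice at 20 weeks, against 0.592, 0.499, 1.08 and 0.499 FPKM in wild type mice. 2410089E03Rik had 12.9, 1.25, 4.34 and 1.5 FPKM in Ncoa5+/- mice at that age, against 1.18, 1.13, 1.12 and 0.811 FPKM in wild type mice, and Gsta1 had 24.7, 5.69, 26.6 and 10 FPKM in Ncoa5+/- mice, against 4.72, 8.66, 4.87 and 3.54 FPKM in wild type mice. In all 3 genes Ncoa5+/- replicates 1, 3 and 4 stood above every wild type mouse, and replicates 1 and 3 were the highest. Replicate 2 lay among the wild type values for Cdkn1a and Gsta1 and just above them for 2410089E03Rik. Of 48 higher genes with a value in every mouse at 20 weeks, replicate 1 held the highest value in 22 and replicate 3 in 14, and these 2 mice were the highest pair in 20. The same counts over all loci at 20 weeks were not made. Gm11974,Gm22457 had 3.24, 4.45, 5.15 and 6.31 FPKM in Ncoa5+/- mice, against 3.75, 6.23, 3.34 and 13.5 FPKM in wild type mice, so the groups overlapped at 20 weeks (-0.27 ± 0.37). Levels were not compared between ages.

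**Figure D5:**
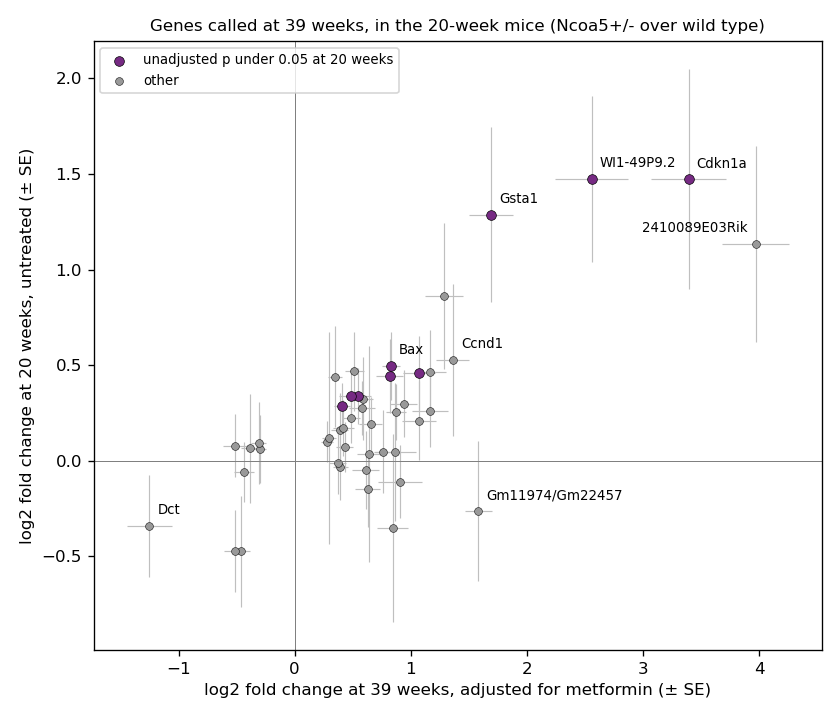
Each point is 1 of the 46 genes called at 39 weeks and tested at 20 weeks, at its log2 fold change of Ncoa5+/- over wild type at 39 weeks (horizontal, adjusted for metformin) and at 20 weeks (vertical), with bars of 1 standard error; purple points had an unadjusted p under 0.05 at 20 weeks. Cdkn1a, WI1-49P9.2 and Gsta1 lie highest, Gm11974/Gm22457 lies below 0 at 20 weeks, and 4 of the 8 lower genes stay below 0.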

How the data were processed

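Liver RNA of single mice was sequenced in 2 cohorts. The submitters' processing notes name Trimmomatic 0.33, TopHat2, Cufflinks, Cuffnorm and GRCm38.p5; other versions and the scaling method are not given in the sources used here. The deposited values are FPKM per locus (Cuffnorm output per the file headers), 1 file a mouse, and the cohorts were never compared with each other. Gene names are those deposited with the loci, positions are 1-based, and overlaps were read from GENCODE M21 (GRCm38).

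Loci listed at 0 throughout one group although another group averaged 1 FPKM or more with no mouse at 0 were treated as failed estimates and dropped (14 loci of 46052). The rest were fitted as log2(FPKM + 1) with limma 3.58.1 in R 4.3.3 (lmFit, eBayes with a trend) where the mean over the 17 mice was at least 1 FPKM, with genotype and treatment as additive terms; a fit of 4 group means gave the values within each drug state and the interaction. The untreated mice, the treated mice and the 20-week mice were also fitted alone, and Ncoa5 and Cdkn1a were tested by exact permutation of genotype within drug state (two-sided). Alternatives changed the pseudocount, filter, scaling, variance model, covariate and mice used. The p-values were adjusted by Benjamini-Hochberg over all loci tested. The code was tested on simulated data. The mice are separate animals per the labels, whose litters, cages and batches are not given; p-values measure the spread between them. Read depth is unknown.

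Members, lists and tests were chosen with earlier results of these data known. Named genes were Ncoa5, Cdkn1a, the 12 higher and 12 lower called genes of smallest p and the 5 of largest fold each way with a regular symbol, up to 4 called members per list, the 3 of smallest interaction p, and other loci among the 5 smallest p; this gave 35 genes, 34 of them called, and 29 called genes lie outside it.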

Additional observations from a re-analysis of the deposited data

Results flagged for a closer look

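Within groups of 4 or 5 mice, 105 sets of values of the named genes were examined for 1 mouse far from the rest, by the gap to the nearest mouse as a share of the group's range, both on the log2(FPKM + 1) scale. Chance alone marks about 1 set in 20, and 6 of the 105 were marked.

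Untreated Ncoa5+/- replicate 1 stood apart in Eda2r (6.24 FPKM, next 2.36 FPKM, gap 0.755 of the range) and in Zak (8.99 FPKM, next 5.35 FPKM, gap 0.893). Treated Ncoa5+/- replicate 1 was far above its group in 2410089E03Rik (55.2 FPKM, next 26.3 FPKM, gap 0.83). Treated Ncoa5+/- replicate 4 was the highest of its group in Prodh (88.3 FPKM, next 71.7 FPKM, gap 0.726). Untreated wild type replicate 4 was the highest of its group in Antxr2 (7.92 FPKM, next 6.34 FPKM, gap 0.835), and untreated wild type replicate 2 in Slc35e2 (12.7 FPKM, next 9.91 FPKM, gap 0.877). Eda2r, Zak, 2410089E03Rik and Prodh stayed called without any single mouse; Antxr2 and Slc35e2 did not.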

How the results depend on the processing

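The count of 63 genes stayed within 1.5 times of itself under every alternative run: 64 and 60 with pseudocounts of 0.1 and 5, 82 with a mean of at least 0.1 FPKM, 70 with no filter, 46 with a mean of at least 5 FPKM, 67 after quantile normalization, 60 after a median shift, 65 without a trend and 65 with a robust fit, 66 with array weights, 72 with failed estimates kept (54 higher and 18 lower), 56 without the treatment term, 59 as the mean of the contrasts in each drug state, and 60 without the 2 libraries of high top-50 share. Genes that differed the same way in both drug states numbered 53 with a p under 0.01 in both and 49 with no overlap in both. A filter of 1 FPKM in each genotype, chosen after seeing the data, gave 52. Leaving out 1 mouse at a time gave 51 (without untreated wild type replicate 3) to 76 (without untreated Ncoa5+/- replicate 2), and 44 of the 63 genes were called in every such fit. The interaction was called at no locus in any of them. Genes called within untreated mice and met in treated mice numbered 29 as a contrast of the fit of 4 group means, which shares its spread over all 17 mice, against 11 in the fit of untreated mice alone; those called within treated mice and met in untreated mice numbered 18, against 6.

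The Ncoa5 difference ranged from -0.241 (without treated wild type replicate 2) to -0.097 (without treated wild type replicate 3) when 1 mouse was left out. Its exact permutation p was under 0.05 without untreated wild type replicate 4 (0.045), untreated Ncoa5+/- replicate 1 (0.0411) or 5 (0.0485) or treated wild type replicate 2 (0.0476), and 0.0559 to 0.291 without any 1 of the other mice; the cause was not tested. Of the named genes' values under all alternatives, 1029 kept their side of the threshold and direction and 72 kept only the direction. The calls lost to a change of processing were of Hsd17b10, Tbc1d4, Wfdc21, Glrx, Antxr2 and Slc35e2, all lower. None of these values changed direction. No paired analysis was possible because the labels carry no replicate numbers; those used here only name the mice. What read depth limits could not be given.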

Other observations

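Differences here are log2 fold changes of Ncoa5+/- over wild type mice in the additive model, ± SE. Of genes typical of fetal liver or liver tumours, 13 were tested and 10 were positive, where 43.9% of all loci tested were. The median was 0.27 in the additive model, 0.36 in untreated mice and 0.05 in treated mice. The 1 called gene of this list, Cbr3, is also an NRF2 target, and Afp, alpha-fetoprotein, stood at 0.33 ± 0.13 (limma adjusted p = 0.599). Iron handling genes had no call, with Slc40a1, the iron exporter ferroportin, at 0.38 ± 0.10 (limma adjusted p = 0.186). Bile acid genes were negative in 14 of 17 without a call, among them Slc10a1, the bile acid importer of hepatocytes, at -0.36 ± 0.11 and Cyp27a1 at -0.22 ± 0.06. Cyp2c37 stood at -0.69 ± 0.16 (limma adjusted p = 0.0883). The list of nuclear receptor coactivators and corepressors, which also holds Ncoa5 and the estrogen receptor gene Esr1, had no call among 9 genes tested, 7 of them positive. Ribosomal protein genes of the cytosol were centred on -0.01, 21 positive and 28 negative.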
